A study of Mus musculus with 6 samples.

Results

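Intermediate spermatogonial stem cell cultures (iSSC) were compared with unipotent germ-line spermatogonial stem cell cultures (SSC) across all genes. The members were chosen by their array titles: 2 iSSC and 2 SSC arrays, which are 4 of the 6 arrays of the study, and 18194 genes with 1 value each. The other 2 arrays, of multipotent cultures (mSSC), entered the estimate of spread and the choice of 1 probe set per gene. Their levels are given beside those of the groups compared. The animals of all groups were ICR males, 3 to 5 days of age, with no treatment or genetic change named. Testis cells were grown in serum-free medium for germ stem cells and carried on feeder layers of mitomycin-treated mouse embryonic fibroblasts. Colonies were picked by hand from their shape, so the 3 groups were set by morphology. Clumps of early passages (0 to 1) and middle passages (9 to 10) were used, and flattened or ES-like colonies either stayed in that medium or went to an ES cell medium. The passage and medium behind each array are not named in the labels. Whether the 2 arrays of a group are independent cultures is not stated, and their spread, on which all p-values rest, may be technical.

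Spermatogonial stem cells are the cells of the testis that renew themselves and feed sperm production. In culture they depend on Gdnf, a growth factor that binds the receptor pair Gfra1 and Ret and keeps transcription factors such as Etv5, Bcl6b, Id4 and Lhx1 active. Cultures from young testes can also give rise to colonies that resemble embryonic stem cells, which use Pou5f1, Nanog and Sox2. Testis cultures carry other cells as well, among them macrophages, Sertoli cells and fibroblasts, and the feeder layer adds more fibroblasts. In RNA from whole colonies, fewer cells of a type and less RNA per cell cannot be told apart.

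Values are log2 signals, and a difference is the iSSC mean minus the SSC mean ± its SE, with n = 2 arrays per group. Array medians lay between 5.83 and 5.93. A level under the lower quartile of the arrays (4.23 to 4.38) was near background, and no fold is given for such a gene. The median SD of a gene was 0.247 in SSC and 0.139 in iSSC. SSC replicate 1 stood apart in RNA quality: the 3' signal of the beta-actin control exceeded the 5' signal by 0.89, against 0.20 in SSC replicate 2 and 0.47 and 0.30 in iSSC. For pyruvate carboxylase the excess was 2.73 in that array, against 1.32, 1.12 and 1.28. The calls depended on which arrays were kept: without SSC replicate 1, or without either iSSC array, limma called 0 genes (2527, 1357 and 2000 at an unadjusted p under 0.05), and without SSC replicate 2 it called 503, of which 195 are among the calls given here.

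Germ cell genes were present in both groups, as the labels state, and macrophage genes were present too. Ddx4, a germ cell RNA helicase, read 9.68 and 11.59 in SSC and 10.69 and 10.56 in iSSC. Zbtb16, a factor that maintains spermatogonial stem cells, read 12.41 and 10.56 in SSC and 11.07 and 11.17 in iSSC. Gfra1, the Gdnf co-receptor, read 9.56 and 10.14, then 10.09 and 10.72. For these 3 genes the groups overlapped, and none was called. Adgre1, a surface marker of macrophages, read 9.13 and 9.06 in SSC, 9.19 and 8.79 in iSSC, and 5.27 and 4.11 in mSSC. Nanog stood near background in all 4 arrays compared, at 3.42 and 3.29 in SSC and 3.62 and 3.25 in iSSC, against 11.58 and 12.44 in mSSC.

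Far more genes were called lower in iSSC than higher. At an adjusted p under 0.05 limma called 381 of the 18194 genes, or 2.09%. Of these, 340 fell (1.87%) and 41 rose (0.225%). Among called genes that moved at least 4-fold, 162 fell and 10 rose. The calls lay close to the threshold, with adjusted p from 0.0214 to 0.04998, and 138 of them were under 0.03. The smallest called difference was 1.12 in size. At an unadjusted p under 0.05 the directions were nearly even, with 1583 genes lower and 1507 higher. The median difference over all genes was 0.10 and 61.5% of genes were positive, so the lean toward lower genes lay in the large changes. A further 148 genes differed at least 4-fold without a call (120 lower, 28 higher), and their median SD in SSC was 0.739, against 0.307 for called genes of that size. Both iSSC arrays lay above both SSC arrays for 32.3% of genes and below both for 17.7%.

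**Figure D1:**
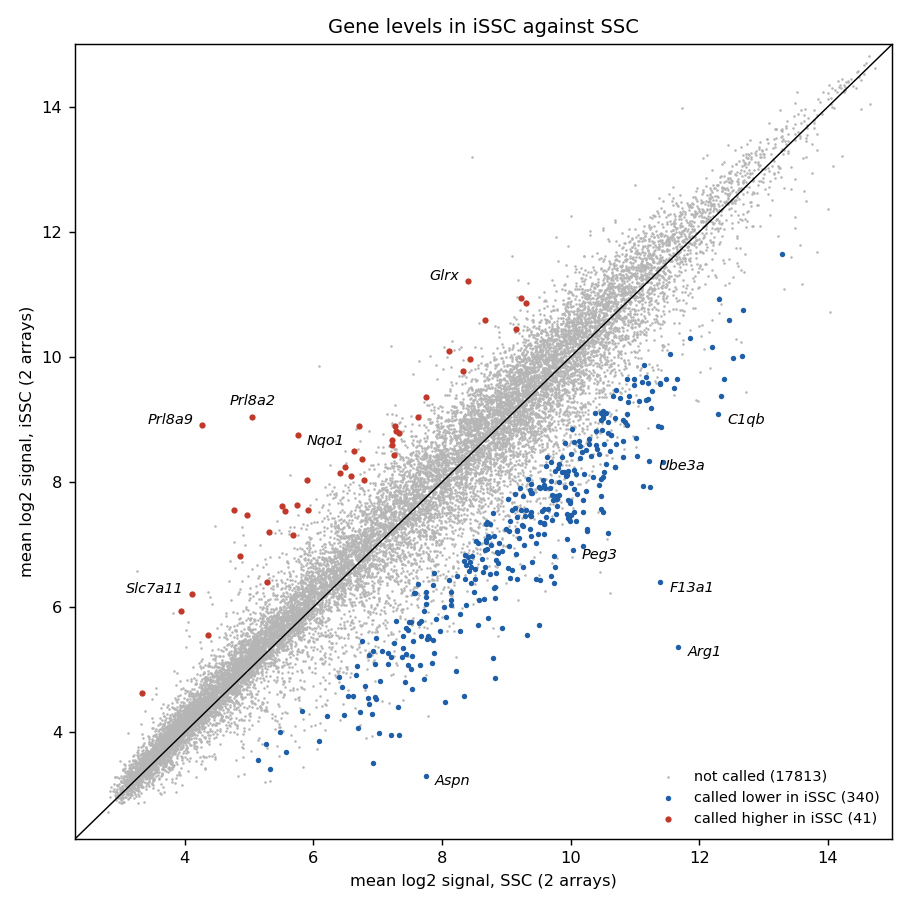
Mean log2 signal of each gene in iSSC (vertical axis, 2 arrays) against SSC (horizontal axis, 2 arrays), with the line of equal levels. The 340 genes called lower (blue) lie over most of the range of SSC levels, and the 41 called higher (red) lie mostly at low to middle levels, with median SSC levels of 9.38 and 6.58.

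Genes of the oxidative stress response were the list with the most increases. This response is run by the transcription factor Nrf2, which turns on enzymes that detoxify quinones and supply glutathione. Of 35 measured Nrf2 targets and oxidative stress genes 3 rose, 0 fell and 32 did not pass, against 0.225% of all genes higher. The list median was 0.41, against 0.10 for all genes, and both iSSC arrays lay above both SSC arrays for 17 of the 35 and below for 3, where 32.3% and 17.7% of all genes lay so. Without SSC replicate 2 the list median was 0.20.

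Nqo1, a quinone reductase and a classic Nrf2 target, read 6.24 and 5.27 in SSC and 8.47 and 9.02 in iSSC, a rise of 2.99 ± 0.39 or 7.95-fold (adjusted p = 0.0287). Its mSSC values were 8.17 and 8.65. Slc7a11, the cystine importer that feeds glutathione synthesis, read 4.00 and 4.24 in SSC, near background, and 6.22 and 6.19 in iSSC (2.08 ± 0.31, adjusted p = 0.0357). With probe sets averaged, the difference of Slc7a11 was 1.32 and not called. Cbr3, a carbonyl reductase, read 9.45 and 9.02, then 10.97 and 10.92 (1.71 ± 0.30, adjusted p = 0.048). In each of the 3 genes both iSSC arrays stood above both SSC arrays, as in all 41 genes called higher. Glrx, a glutaredoxin that reverses glutathione adducts on proteins and was not on the list, read 8.65 and 8.16 in SSC and 10.88 and 11.53 in iSSC (2.80 ± 0.38, adjusted p = 0.0298). Among the members not called, differences lay on both sides. Gstm2, a glutathione transferase, differed by -1.68 ± 0.32 (adjusted p = 0.0614) and Gstm1 by -1.27 ± 0.32 (adjusted p = 0.12). Gsta4, of the same enzyme class, differed by 0.83 ± 0.26 (adjusted p = 0.195), and Hmox1, the heme oxygenase, by 0.78 ± 0.37 (adjusted p = 0.361).

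The promoters of the 3 called targets are shown because Nrf2 acts through antioxidant response elements, whose core can be written TGACNNNGC. They are the 250 bases before the start site in RefSeq's table for GRCm38.p6, 5' to 3' on the gene's strand, in lower case throughout since no match was found to mark.
Nqo1, chr8:107403206-107403455, minus strand: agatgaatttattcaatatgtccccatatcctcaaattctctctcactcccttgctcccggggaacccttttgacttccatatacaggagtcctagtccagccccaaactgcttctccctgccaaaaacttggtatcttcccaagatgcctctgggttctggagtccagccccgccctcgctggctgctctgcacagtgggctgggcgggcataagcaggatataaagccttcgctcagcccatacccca
Slc7a11, chr3:50443614-50443863, minus strand: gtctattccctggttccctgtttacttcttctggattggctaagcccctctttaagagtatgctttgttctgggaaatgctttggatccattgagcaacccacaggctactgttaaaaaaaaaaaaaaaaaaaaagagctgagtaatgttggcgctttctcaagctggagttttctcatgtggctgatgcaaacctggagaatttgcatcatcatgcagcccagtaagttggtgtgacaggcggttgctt
Cbr3, chr16:93682969-93683218, plus strand: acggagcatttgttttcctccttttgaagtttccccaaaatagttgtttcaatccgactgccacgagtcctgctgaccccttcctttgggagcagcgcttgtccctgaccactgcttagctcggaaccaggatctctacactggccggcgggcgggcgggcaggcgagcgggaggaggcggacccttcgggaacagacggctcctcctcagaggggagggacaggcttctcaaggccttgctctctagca
The search covered both strands of the whole window of 300 bases, including 50 after the start. The core matched in 0 of these 3 windows and in 12.4% of all 32851 promoter windows of the table. The letters are absent from these windows only, and elements farther away were not searched.

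Placental prolactins and genes of the cornified envelope held some of the largest increases. The prolactin family of the mouse is a cluster of hormone genes used mainly by placenta and decidua. Of 18 measured members 2 rose and 16 did not pass, against 0.225% of all genes higher. The list median was 0.16, and 0.02 without SSC replicate 2. Prl8a9 read 5.24 and 3.31 in SSC and 8.71 and 9.11 in iSSC (4.63 ± 0.58, adjusted p = 0.0287). Prl8a2 read 6.11 and 4.00, then 9.50 and 8.57 (3.98 ± 0.68, adjusted p = 0.048). Both were higher in SSC replicate 1 than in replicate 2, yet both iSSC values were well above both, and the mSSC values lay between 3.57 and 4.28. The next members were Prl8a6 (0.65 ± 0.28, adjusted p = 0.32) and Prl7c1 (0.34 ± 0.24, adjusted p = 0.548), so 2 members passed and the nearest others did not. Of 26 trophoblast genes 0 rose and 0 fell. Cdx2, a trophoblast transcription factor, read 5.05 and 4.98 in SSC and 5.79 and 5.47 in iSSC (0.61 ± 0.22, adjusted p = 0.232). Tfap2c, another, differed by 1.23 ± 0.50 (adjusted p = 0.289).

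Sprr2d, a small proline-rich protein that is cross-linked into the cornified envelope of skin, had the smallest adjusted p among the increases. It read 5.10 and 4.84 in SSC and 7.30 and 7.64 in iSSC, a rise of 2.50 ± 0.23 or 5.65-fold (adjusted p = 0.0214). It was the 1 gene called of 34 keratins and cornified envelope genes, against 0.225% of all genes higher. The list median was 0.28, and 0.13 with the trend on gene span, described below, removed. Both iSSC arrays lay above both SSC arrays for 17 of the 34 members and below for 0, where 32.3% and 17.7% of all genes lay so. Sprr1a (0.67 ± 0.22, adjusted p = 0.204) and Krt4 (0.62 ± 0.23, adjusted p = 0.239) were the next members. Crct1, a gene of the epidermal differentiation complex that was not on the list, read 5.52 and 4.01 in SSC and 7.32 and 7.81 in iSSC (2.80 ± 0.49, adjusted p = 0.0481). Of 29 epithelial junction genes none was called. Cdh1, the cadherin of epithelia and of undifferentiated spermatogonia, read 5.47 and 6.21 in SSC and 7.68 and 7.00 in iSSC (1.50 ± 0.34, adjusted p = 0.098), against 11.52 and 11.54 in mSSC.

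Several signalling genes rose as well. Ptges, the synthase that makes prostaglandin E2, read 8.22 and 7.99 in SSC and 10.00 and 10.20 in iSSC (1.99 ± 0.26, adjusted p = 0.0287), with the same sign in all 3 of its probe sets. Ptgir, the receptor for prostacyclin, read 5.24 and 4.48, then 6.72 and 6.91 (1.96 ± 0.29, adjusted p = 0.0362). Lif, the cytokine that sustains mouse embryonic stem cells in culture, read 6.39 and 6.44 in SSC, 7.96 and 8.34 in iSSC, and 6.28 and 6.79 in mSSC (1.74 ± 0.26, adjusted p = 0.0371). For all 3 the iSSC values were above those of the other 4 arrays. Ltb, a lymphotoxin chain, rose by 1.88 ± 0.27 (adjusted p = 0.033). Tgif1, a homeobox repressor of Tgf-beta signalling, rose by 1.93 ± 0.28 (adjusted p = 0.035), and its mSSC values of 11.00 and 11.59 were also high. Slc39a4, a zinc importer, rose by 2.14 ± 0.26 (adjusted p = 0.0287), from 6.17 and 5.63 to 8.13 and 7.94, with 9.33 and 9.59 in mSSC. Stx11, a syntaxin of secretory cells, rose by 2.10 ± 0.23 (adjusted p = 0.0286). Plek2, a relative of pleckstrin, read 4.02 and 3.88 in SSC, near background, and 5.68 and 6.20 in iSSC. Sgpp2, a sphingosine-1-phosphate phosphatase, rose by 1.75 ± 0.28, the gamma-tubulin gene Tubg2 by 1.86 ± 0.29 and Ct55 by 1.89 ± 0.31. The other probe set of Tubg2 did not have the same sign. With probe sets averaged, the difference of Tubg2 was 0.93 and not called. Hilpda, a lipid droplet protein, rose by 1.54 ± 0.21 (adjusted p = 0.0307). Only 1 probe set stood for 29 of the 41 genes that rose, so most increases had no second probe set to compare.

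**Figure D2:**
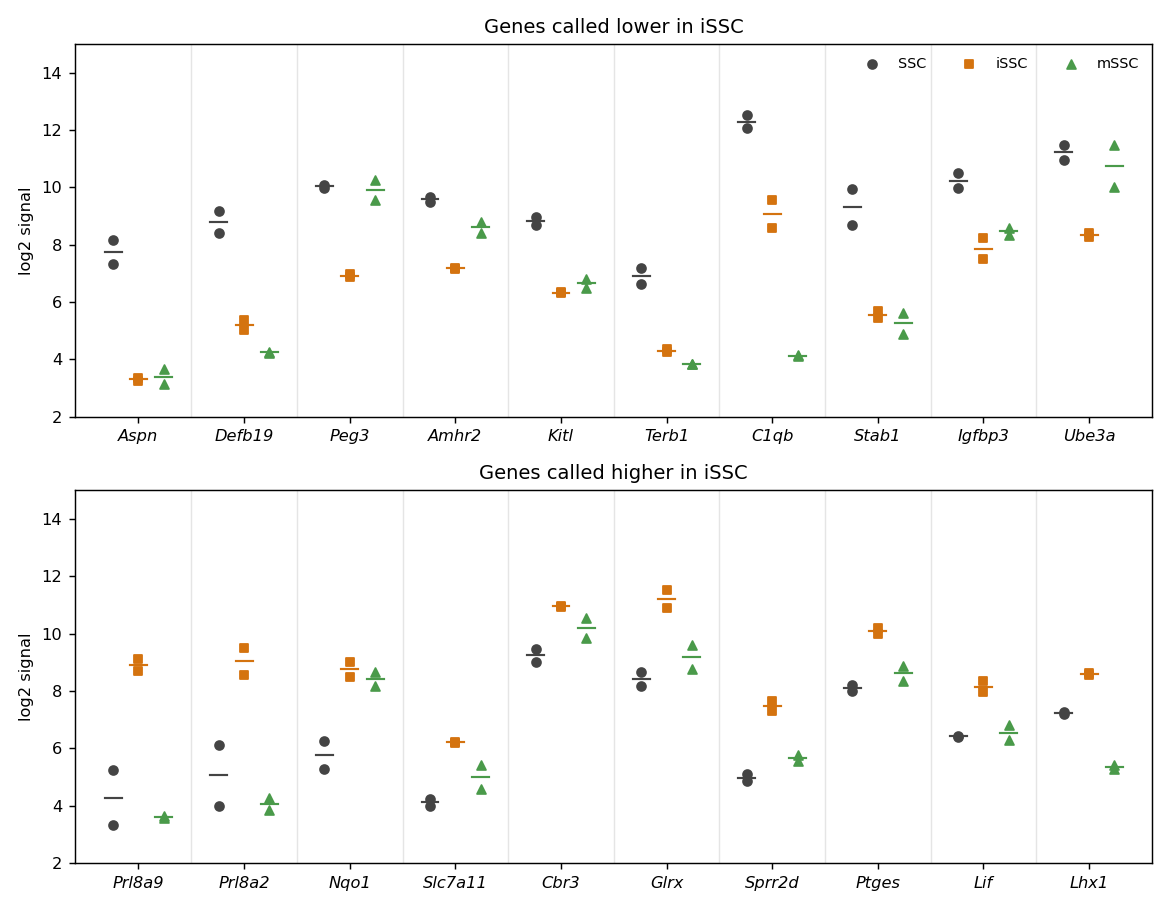
Log2 signal (vertical axis) of 10 genes called lower and 10 called higher in iSSC, with 1 point per array and a bar at each group mean (n = 2). The iSSC squares do not overlap the SSC circles in these 20 genes, as in all 381 called genes. Over all genes, both iSSC arrays lay above both SSC arrays for 32.3% and below for 17.7%. The mSSC triangles stand near SSC for Peg3 and Ube3a and near background for C1qb.

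Inflammatory genes did not move together. The chemokine Cxcl10, induced by interferons, read 5.65 and 5.46 in SSC and 8.01 and 7.05 in iSSC (1.97 ± 0.33, adjusted p = 0.0463). It was the 1 call among 22 chemokine ligands and receptors, against 0.225% of all genes higher. The median of that list was 0.18 and fell to -0.01 without SSC replicate 2. Ccl3 (-1.19 ± 0.26, adjusted p = 0.0869) and Ccl4 (-1.58 ± 0.38, adjusted p = 0.108), both macrophage chemokines, differed in the other direction without a call. Of 27 interferon response genes 0 were called, at a median of 0.70, which was 0.22 without SSC replicate 2 and 0.44 without iSSC replicate 1. Both iSSC arrays were above both SSC arrays for 13 and below for 2, where 32.3% and 17.7% of all genes lay so. Usp18, which dampens interferon signalling, differed by 2.29 ± 0.55 (adjusted p = 0.112), while Ifit2, an interferon-induced protein, differed by -1.45 ± 0.37 (adjusted p = 0.129). Of 15 MHC class II and antigen presentation genes 0 were called, at a median of 0.77, which was 0.45 without SSC replicate 2 and 0.42 without iSSC replicate 1. H2-Ab1, an MHC class II chain, read 5.59 and 5.58 in SSC and 7.40 and 6.30 in iSSC (1.26 ± 0.38, adjusted p = 0.181), and the peptide transporter Tap1 differed by 0.83 ± 0.24 (adjusted p = 0.166). None of 16 markers of T cells, B cells, mast cells and neutrophils was called.

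Among stem cell genes of the germ line 1 was called, and it rose. Of 34 genes of undifferentiated spermatogonia 1 rose, 0 fell and 33 did not pass, against 0.225% of all genes higher. The list median was 0.48. Both iSSC arrays lay above both SSC arrays for 15 of the 34 and below for 4, where 32.3% and 17.7% of all genes lay so. Lhx1, a LIM homeobox factor that Gdnf induces in these cells, read 7.21 and 7.25 in SSC, 8.55 and 8.63 in iSSC, and 5.27 and 5.41 in mSSC (1.36 ± 0.20, adjusted p = 0.0346). It is also on the list of later epiblast and mesoderm genes, of which it was the 1 call among 14. Piwil4, a piRNA pathway protein, read 5.33 and 5.49, then 7.28 and 7.09 (1.77 ± 0.32, adjusted p = 0.0524), just outside the call. Etv5 read 9.18 and 9.65 in SSC and 10.52 and 10.66 in iSSC (1.18 ± 0.24, adjusted p = 0.0772). Ret read 9.04 and 8.90, then 10.28 and 9.89 (1.11 ± 0.24, adjusted p = 0.081). For all 4 genes the groups did not overlap. Id4 (1.04 ± 0.26, adjusted p = 0.12) and Bcl6b (1.26 ± 0.36, adjusted p = 0.16) also differed without a call. The Gdnf, Fgf and MAP kinase feedback list, which shares members with this one, had 0 calls of 25 and a median of 0.41. Gdnf itself read 5.09 and 4.89 in SSC and 5.39 and 5.40 in iSSC.

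The pluripotency lists held 1 call, in Tcl1. Of 23 core pluripotency genes 0 were called and the median of 0.15 was close to that of all genes, and -0.02 with the trend on gene span removed. Pou5f1 read 9.52 and 8.22 in SSC and 8.98 and 9.25 in iSSC (0.25 ± 0.44, adjusted p = 0.842), against 12.31 and 12.79 in mSSC. Sox2 read 6.04 and 7.06, then 7.37 and 8.48 (1.38 ± 0.46, adjusted p = 0.216), against 11.78 and 11.74. The 2 iSSC values of Sox2 were both above those of SSC and both below those of mSSC. Dppa5a, an RNA-binding protein of pluripotent cells, differed by 1.16 ± 0.34 (adjusted p = 0.174). Among 23 naive pluripotency genes Tcl1, an activator of Akt, was the 1 call, against 0.225% of all genes higher. It read 9.21 and 9.41 in SSC, 11.12 and 10.59 in iSSC, and 10.78 and 11.11 in mSSC (1.55 ± 0.27, adjusted p = 0.048). Klf4 differed by -0.66 ± 0.23 (adjusted p = 0.228).

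Genes of meiosis and of differentiation held a few decreases. Of 29 meiosis genes 3 fell, 0 rose and 26 did not pass, against 1.87% of all genes lower, with a median of -0.01. The sign of that median turned under 4 settings, among them without SSC replicate 2 (0.21). Sycp2, an axial element of the synaptonemal complex, read 8.96 and 7.73 in SSC and 4.70 and 4.47 in iSSC, a fall of 13.6-fold (-3.76 ± 0.47, adjusted p = 0.0287). Terb1, which ties telomeres to the nuclear envelope in meiosis, read 6.64 and 7.19, then 4.24 and 4.36, near background (-2.62 ± 0.25, adjusted p = 0.0214). Mlh3, a mismatch repair protein of crossovers, read 7.96 and 7.54, then 6.23 and 6.27, and 8.26 and 8.32 in mSSC (-1.50 ± 0.23, adjusted p = 0.0371). Rnf17, a tudor protein of germ cell granules, read 9.23 and 9.94 in SSC, 7.30 and 7.37 in iSSC, and 9.72 and 9.34 in mSSC (-2.25 ± 0.30, adjusted p = 0.0289), with the same sign in 4 of 4 probe sets. It was the 1 call of 29 germ cell identity and piRNA genes. Dazl, a germ cell RNA-binding protein, differed by -1.44 ± 0.36 (adjusted p = 0.123). Of 18 genes of differentiating spermatogonia 0 were called. Stra8, the retinoic acid target that marks entry into meiosis, read 11.00 and 12.97 in SSC and 7.29 and 11.30 in iSSC (-2.69 ± 1.26, adjusted p = 0.356), with the iSSC arrays far apart. Kit, which marks differentiating spermatogonia, read 7.18 and 10.31, then 7.08 and 8.66, and the groups overlapped. Of 22 retinoic acid genes 0 were called.

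Macrophage genes held 7 decreases, and their level differed between the SSC arrays. Of 34 macrophage identity genes 7 fell, 0 rose and 27 did not pass, all 34 differences were negative, and the median was -1.57. Over all genes 1.87% were called lower. Both iSSC arrays lay below both SSC arrays for 28 of the 34, and for 17.7% of all genes. The median level of the list was 9.95 and 9.07 in SSC, 8.74 and 7.96 in iSSC, and 5.27 and 5.56 in mSSC. Without SSC replicate 1, the array with the highest level, the median difference was -0.90. Csf1r, the receptor for the growth factor that keeps macrophages alive, read 11.93 and 10.89 in SSC and 9.08 and 8.68 in iSSC, a fall of 5.79-fold (-2.53 ± 0.37, adjusted p = 0.035). Csf1, that growth factor, read 11.06 and 9.38, then 10.70 and 11.19 (adjusted p = 0.752). C1qa, a chain of complement C1q, read 12.67 and 11.99, then 9.95 and 8.79 (-2.95 ± 0.43, adjusted p = 0.0336). Mpeg1, a pore-forming protein of macrophages, fell (-2.73 ± 0.38), as did Ly86, a partner of a Toll-like receptor relative (-2.39 ± 0.32). Ptprc read 9.61 and 8.24, then 5.82 and 5.52 (-3.26 ± 0.44, adjusted p = 0.0296), but its other probe set had the opposite sign. With probe sets averaged, the difference of Ptprc was -1.54 and not called. The size differed among members, and Adgre1, given above, differed by -0.11 ± 0.39 (adjusted p = 0.933).

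Among 25 genes of alternatively activated and resident macrophages 4 fell (Arg1, F13a1, Stab1 and Mrc1), against 1.87% of all genes lower. The others spread to both sides. Arg1 read 13.12 and 10.23 in SSC, 6.20 and 4.54 in iSSC, and 4.71 and 3.82 in mSSC. The SSC arrays were far apart, yet the lower one stood well above the higher iSSC array. Mrc1, the mannose receptor, read 11.56 and 10.90, then 8.70 and 7.16 (-3.30 ± 0.52, adjusted p = 0.0393). Gpnmb (-1.82 ± 0.33, adjusted p = 0.0525) and Trem2 (-1.73 ± 0.32, adjusted p = 0.0564), both of lipid-handling macrophages, lay just outside the call. Mgl2, a lectin of alternatively activated macrophages, differed the other way (1.60 ± 0.49, adjusted p = 0.18). The list median was -0.93, and -0.34 without SSC replicate 1. Plek, pleckstrin of blood cells, and Maf, a transcription factor of macrophages, were not on these lists and fell (-3.40 ± 0.37 and -3.21 ± 0.52). Of 25 lysosome genes 0 were called. Their median was -0.62, and -0.34 without SSC replicate 1. The lipase Lipa (-1.39 ± 0.25, adjusted p = 0.0543) and the glucuronidase Gusb (-1.27 ± 0.29, adjusted p = 0.1) were lowest in p. Of 17 complement and coagulation genes 4 fell, against 1.87% of all genes. They were the 3 C1q chains and F13a1, which the macrophage lists also hold.

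Genes of Sertoli cells, the nurse cells of the tubule, also fell in part. Of 27 Sertoli cell genes 4 fell, 0 rose and 23 did not pass, against 1.87% of all genes lower. The median was -0.88, and -0.53 with the probe sets of a gene averaged. Amhr2, the receptor for anti-Müllerian hormone, read 9.68 and 9.48 in SSC, 7.18 and 7.17 in iSSC, and 8.41 and 8.79 in mSSC, a fall of 5.30-fold (-2.41 ± 0.23, adjusted p = 0.0214). Kitl, the ligand of Kit, read 8.67 and 8.97, then 6.30 and 6.36 (-2.49 ± 0.23, adjusted p = 0.0214), and 6.81 and 6.50 in mSSC. With probe sets averaged, the difference of Kitl was -1.08 and not called. Gata4, a transcription factor of the gonad, read 7.75 and 7.74, then 6.30 and 6.03 (adjusted p = 0.0333). Cst12, a cystatin, was the fourth and fell from 9.18 and 10.32 to 6.29 and 6.50 (-3.35 ± 0.39, adjusted p = 0.0287). Defb19, a defensin that was not on the list, fell by 3.59 ± 0.30 (adjusted p = 0.0214), from 8.42 and 9.16 to 5.01 and 5.38. Clu (-2.22 ± 0.41, adjusted p = 0.0564) and Sox9, the Sertoli cell fate factor (-1.40 ± 0.28, adjusted p = 0.0707), were not called. SSC replicate 1 was not the higher SSC array here: the list's median level was 7.08 in that array and 7.35 in replicate 2, against 6.23 and 6.26 in iSSC. Of 8 Leydig cell genes 0 were called. Star, which starts steroid synthesis, read 9.80 and 8.27 in SSC and 9.41 and 6.74 in iSSC.

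Matrix genes of fibroblasts held 2 decreases. Of 39 fibroblast and matrix genes 2 fell (Timp3 and Col6a2), 0 rose and 37 did not pass, against 1.87% of all genes lower. The median was -0.93, and both iSSC arrays lay below both SSC arrays for 29 of the 39, and for 17.7% of all genes. The median level was 11.92 and 11.22 in SSC, 10.07 and 10.51 in iSSC, and 7.39 and 9.55 in mSSC. Col1a1, a chain of type I collagen, read 13.44 and 12.01, then 9.16 and 9.71 (-3.29 ± 0.70, adjusted p = 0.0813). Aspn, a small matrix proteoglycan that was not on the list, had the third largest fall: it read 7.34 and 8.16 in SSC and 3.37 and 3.25 in iSSC, near background (-4.44 ± 0.33, adjusted p = 0.0214). Hs6st2, a heparan sulfate sulfotransferase, fell by 3.96 ± 0.37, although 1 of its 4 probe sets had the other sign. Epha3, an ephrin receptor, fell (-3.42 ± 0.37), and so did Zfhx4, a large homeobox factor (-3.38 ± 0.26), both to near background.

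Insulin-like growth factor genes, which act on growth in many tissues, held 3 decreases. Of 15 insulin-like growth factor genes and binding proteins 3 fell, 0 rose and 12 did not pass, against 1.87% of all genes lower. The median was -0.88, which was -0.33 without SSC replicate 1 and -1.44 without SSC replicate 2. Igf1 read 10.73 and 9.45 in SSC, 7.44 and 7.33 in iSSC, and 5.41 and 5.57 in mSSC, a fall of 6.53-fold (-2.71 ± 0.41, adjusted p = 0.0371). Igfbp3 read 10.49 and 9.98, then 7.50 and 8.23 (-2.37 ± 0.32, adjusted p = 0.0306), and Igfbp5 read 9.18 and 8.24, then 6.09 and 5.56 (-2.89 ± 0.47, adjusted p = 0.0411). Both encode proteins that bind these factors. Igf2 differed by -0.81 ± 0.55 (adjusted p = 0.528). Of 20 mesenchymal transition genes 1 fell, Tgfbr1, the type I receptor for Tgf-beta, which read 10.38 and 10.64, then 9.11 and 8.93 (-1.49 ± 0.24, adjusted p = 0.0398). Snai2 (-2.16 ± 0.51, adjusted p = 0.105) and Cdh2 (-1.54 ± 0.41, adjusted p = 0.139) were not called, and 19 of the 20 differences were negative. Of 18 peritubular and smooth muscle genes 1 fell, Actg2. Of 17 endothelial genes 1 rose, against 0.225% of all genes higher. It was Plvap, a protein of vessel wall diaphragms, which read 6.85 and 6.57, then 9.24 and 8.57 (2.19 ± 0.31, adjusted p = 0.0322). Cdh5, which defines endothelium, stood near or little above background, at 4.13 and 4.42 in SSC and 4.67 and 4.74 in iSSC.

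**Figure D3:**
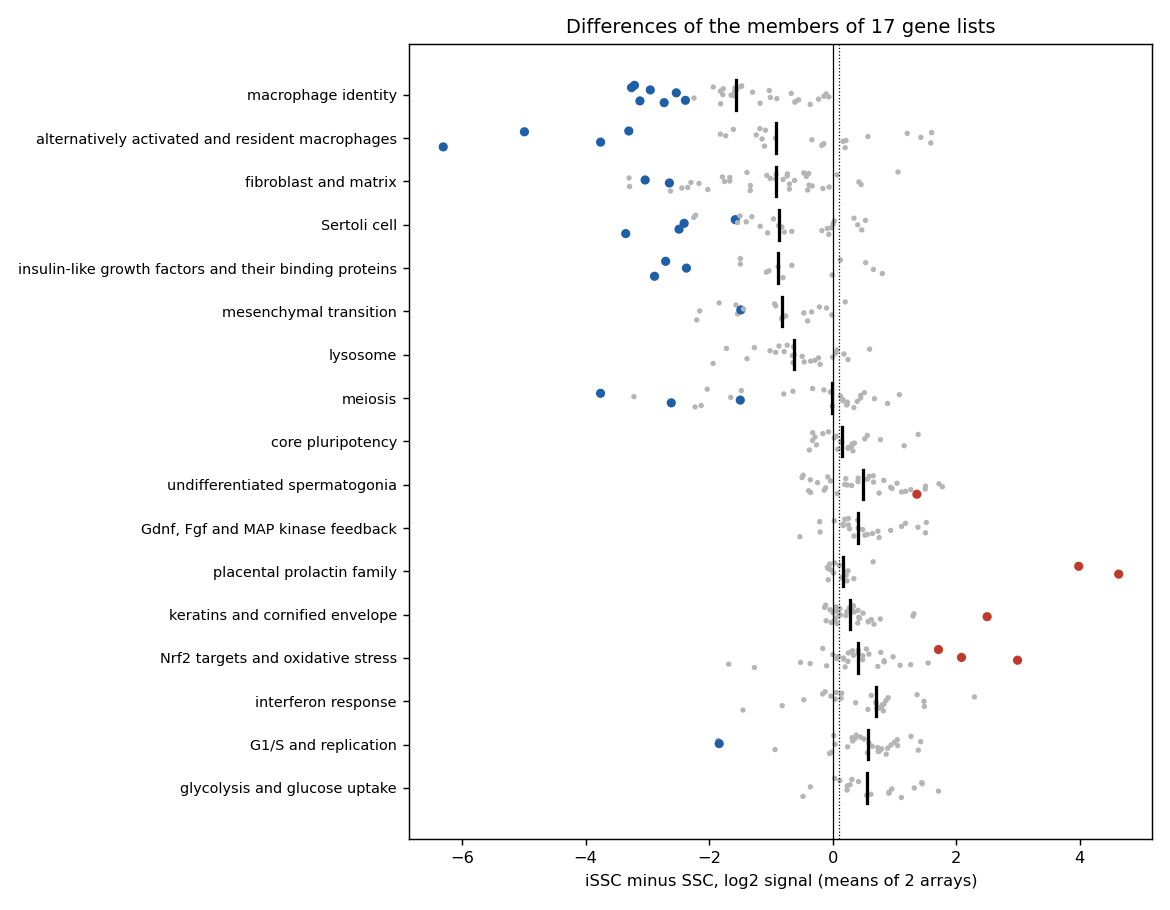
Difference between iSSC and SSC in log2 signal (horizontal axis) for each measured member of 17 gene lists. Blue points were called lower, red called higher and grey not called, black bars are list medians and the dotted line is the median of all genes (0.10). Macrophage identity genes all lie below 0, and the 2 called prolactins stand apart from the other 16.

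Imprinted genes held 3 decreases. Peg3, a zinc finger protein expressed from the paternal copy, read 10.09 and 9.98 in SSC, 6.96 and 6.87 in iSSC, and 10.25 and 9.56 in mSSC. It fell 8.67-fold (-3.12 ± 0.28, adjusted p = 0.0214), with the same sign in 5 of 5 probe sets, and it was the 1 call of 16 paternally expressed genes, whose median was -0.02. When probe sets were averaged instead, the difference of Peg3 was -1.47 and not called. Of 18 maternally expressed genes 2 fell, against 1.87% of all genes. Their median was -0.20, negative under all settings run (-0.39 to -0.06), and both iSSC arrays lay below both SSC arrays for 8 of the 18, against 17.7% of all genes. Ube3a, a ubiquitin ligase imprinted in neurons, read 11.47 and 10.97, then 8.27 and 8.40, and 11.47 and 10.00 in mSSC (-2.88 ± 0.48, adjusted p = 0.0433). Ppp1r9a, an actin-binding protein, read 7.48 and 7.05, then 5.49 and 5.35, and 7.90 and 8.70 in mSSC (-1.84 ± 0.32, adjusted p = 0.0484). With probe sets averaged, the difference of Ube3a was -1.45 and the difference of Ppp1r9a -1.15, neither called. For these 3 genes both mSSC arrays stood above both iSSC arrays, while C1qb read 12.51 and 12.07 in SSC, 9.57 and 8.60 in iSSC, and 4.11 and 4.14 in mSSC. The mSSC arrays were in the fit, and this order was not tested.

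Other genes with large changes or small p-values were on none of the lists. Dnm1l, the dynamin that divides mitochondria, read 10.43 and 10.51 in SSC, 7.92 and 8.16 in iSSC, and 11.30 and 11.05 in mSSC (-2.43 ± 0.22, adjusted p = 0.0214), with the same sign in 4 of 4 probe sets. With probe sets averaged, the difference of Dnm1l was -1.24 and not called. Vamp7, a membrane fusion protein, read 8.87 and 8.78, then 6.00 and 6.30, and 9.02 and 8.91 (-2.67 ± 0.21, adjusted p = 0.0214), but its other probe set had the opposite sign. Exoc5, a subunit of the exocyst, read 9.89 and 9.50, then 6.48 and 6.51, and 9.60 and 8.41 (-3.20 ± 0.40, adjusted p = 0.0287). With probe sets averaged, the difference of Exoc5 was -1.73 and not called. In these 3 genes the iSSC arrays were the lowest of the 6. Arap2, a regulator of small GTPases, fell (-2.35 ± 0.20), as did Celf2, an RNA-binding protein (-2.54 ± 0.23). Tbc1d8b (-3.56 ± 0.34), Pgm2l1 (-3.79 ± 0.64), Tmem184a (-2.52 ± 0.20) and Zfp948 (-3.25 ± 0.49) fell too. Smarca5, an ATPase that slides nucleosomes, read 12.51 and 12.55, then 9.98 and 9.99, and 12.45 and 11.76 (adjusted p = 0.0261). Stag2, a cohesin subunit, read 9.45 and 9.36, then 6.41 and 7.05, and 10.31 and 9.91 (adjusted p = 0.0261). These last 2 were chosen after their values were seen. Of 336 genes named Zfp with a number, a family also chosen so, 20 fell (5.95%, against 1.87% of all genes) and 0 rose, and the family's median was -0.07.

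The genes that fell were long. Gene span, the distance on the genome from the first to the last base of a gene in RefSeq's table for GRCm38.p6, had a median of 63.0 kb in the 336 lower genes with a value, 14.1 kb in the 41 higher genes and 20.3 kb in all 18033 genes with a value. When genes were split into 5 equal groups by span, the share that fell was 0.305% in the shortest (11 genes), then 0.693%, 1.22% and 2.50%, and 4.60% in the longest (166 genes). The share that rose went from 0.360% in the shortest to 0.194% in the longest. The median difference was 0.16 in the shortest group and -0.07 in the longest. Within the longest group the median deviation from a gene's mean over these 4 arrays was 0.13 in SSC replicate 1, -0.06 in SSC replicate 2, and -0.05 and -0.05 in iSSC. In the shortest group the same medians were -0.01, -0.16, 0.12 and 0.04. From shortest to longest the deviation thus went up in both SSC arrays and down in both iSSC arrays. SSC replicate 1 had the largest 3' excess of the control transcripts, given above. The part of span or of this excess in the calls was not tested. With the trend on span removed from each array, 317 genes were called (292 lower, 25 higher), of which 296 were among the calls above. The median span of all 336 Zfp genes was 17.4 kb, and that of the 20 that fell was not computed.

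**Figure D4:**
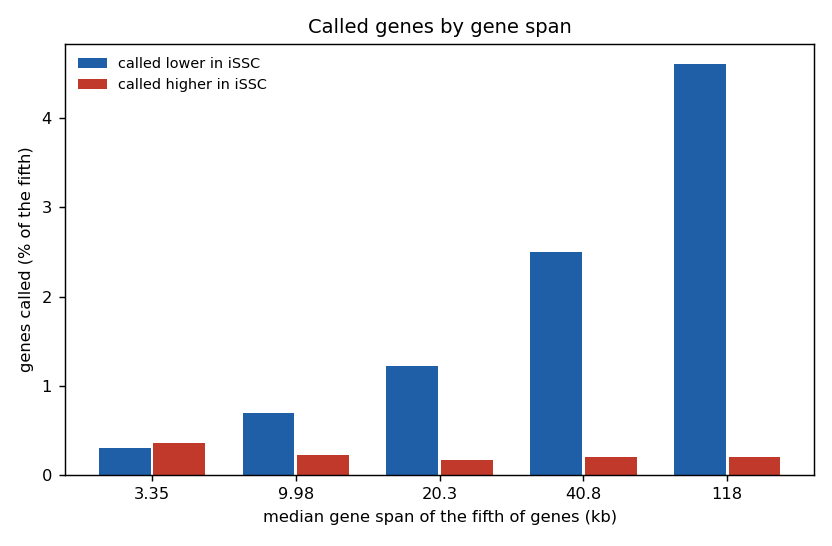
Share of genes called (vertical axis, percent) in 5 equal groups of genes ordered by gene span, labelled by their median span in kb (horizontal axis). Genes called lower in iSSC (blue) rise from 0.305% to 4.60%, while genes called higher (red) stay between 0.166% and 0.360%.

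A second reading of the same genes, from the same RNA on the same arrays, came from other probe sets. The rule on 1 value per gene had left these out. Of the 340 lower genes 271 had other probe sets, 668 in all, and 89.2% of these had the same sign, against 67.3% of other probe sets over all genes. Called genes were selected for large differences and all genes were not, so the 2 shares are not like for like. Their median difference was -0.85, against -1.96 for the probe sets used in these genes, at a median level of 5.97 against 8.46, and 16 of the 668 were called. With the probe sets of each gene averaged, 26 of the 381 genes were still called. Of the 381 genes 98 had only 1 probe set, so averaging left their values unchanged. Among these, Nqo1, Prl8a9, Stab1 and Cst12 lost the call at the same difference, while Sprr2d, Defb19 and Tmem184a kept it. A call lost under averaging thus need not mean that the probe sets of a gene differ. Why calls were lost was not tested. Of the 41 higher genes 12 had other probe sets, and 15 of 17 had the same sign. In iSSC 42 of the 340 lower genes had a mean under the lower quartile of gene values in that group. In SSC 8 of the 41 higher genes did. These quartiles were taken over the 1 value per gene, so they are not the limit used above for near background.

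Cell cycle genes held 3 decreases although both list medians were positive, and metabolic genes held no call. Of 30 G1/S and replication genes 1 fell and 0 rose, against 1.87% of all genes lower, at a median of 0.57. Both iSSC arrays lay above both SSC arrays for 21 and below for 3, where 32.3% and 17.7% of all genes lay so. Pola1, the catalytic subunit of DNA polymerase alpha, read 8.19 and 8.66, then 6.51 and 6.66 (-1.84 ± 0.24, adjusted p = 0.0287), although its other probe set had the opposite sign. Mcm10, a replication initiation factor, read 8.71 and 9.17, then 10.40 and 10.01 (1.27 ± 0.27, adjusted p = 0.0798). Of 33 G2/M genes 2 fell: Hmmr, a spindle protein (-1.48 ± 0.24, adjusted p = 0.0425), and the kinetochore gene Ndc80 (-1.74 ± 0.30, adjusted p = 0.0486). The median of the G2/M list was 0.38, and 0.07 without SSC replicate 1. Aurka, a mitotic kinase, differed by 1.18 ± 0.24 (adjusted p = 0.0731), and Mki67 read 11.38 and 10.63, then 8.63 and 8.49 (-2.45 ± 0.81, adjusted p = 0.209). The proliferation genes lay on both sides. Of 19 glycolysis genes 0 were called, at a median of 0.55, which was 0.90 without SSC replicate 1 and 0.27 without SSC replicate 2. The glucose carrier Slc2a1 read 10.76 and 9.83 in SSC and 12.01 and 12.01 in iSSC (1.71 ± 0.44, adjusted p = 0.13). No gene was called among 35 of oxidative phosphorylation (median 0.29) or 24 of cytosolic ribosomal proteins (0.18). With the trend on gene span removed these medians were 0.15 and 0.01, and without SSC replicate 1 they were 0.06 and 0.10.

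The remaining lists had 1 call between them, Gata4, which fell, among 23 endoderm genes, against 1.87% of all genes lower. In that list Foxa2 (1.40 ± 0.26, adjusted p = 0.0571) and Afp (1.49 ± 0.35, adjusted p = 0.103) differed upward without a call. Of 20 Bmp and Id genes 0 were called, at a median of 0.43 (0.27 without SSC replicate 2), with the homeobox factor Msx2 at 1.48 ± 0.29 (adjusted p = 0.0619) and the inhibitor Smad6 at 1.21 ± 0.26 (adjusted p = 0.0856). Nor was any gene called among 31 Hox genes, 20 of the unfolded protein response (median 0.45), 22 p53 targets and cell cycle inhibitors, 17 of cholesterol synthesis, 21 immediate early, 15 DNA methylation, 27 Wnt and 19 neural genes. The list with the highest median of these, the unfolded protein response, was at 0.20 without SSC replicate 2 and had Asns at 0.82 ± 0.24 (adjusted p = 0.163) and Hsp90b1 at -1.15 ± 0.30 (adjusted p = 0.136). Among 10092 probe sets with no single gene symbol 0 were called higher and 3 lower.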

How the data were processed

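RNA of 6 samples was amplified and biotin-labelled from 10 µg with NuGEN kits and hybridised to Affymetrix arrays, per the labels' protocols. The deposited values are log2 signals that the authors made with RMA, which corrects background, normalizes arrays by quantiles and summarises probe sets, per the submitters' processing notes. No further normalization or filter was applied. Of 45101 probe sets 34958 had exactly 1 symbol. Each of 18194 genes was represented by its probe set of highest average signal on the 6 arrays. A group means model over all 6 arrays was fitted with limma 3.58.1 in R 4.3.3 (lmFit, eBayes, 2-sided, Benjamini-Hochberg over all genes, call at 0.05) and tested on simulated data. The genes named were the 20 largest called changes and 10 smallest p-values in each direction, called members of 46 lists, up to 4 uncalled members of a list by smallest p and a panel. Members and lists were chosen with earlier results of these data known, so they are no independent support. 1 panel gene is not analysed here. The number of arrays limits the precision.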

Additional observations from a re-analysis of the deposited data

How the results depend on the processing

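Each of the 381 called genes kept its direction under each setting that gave it 1 value, but the number of calls moved. For most settings the direction could not have turned. A changed model of the spread leaves the difference as it was. In all 381 genes the iSSC and SSC values did not overlap, so leaving out 1 array could not turn the sign. Over every probe set, where a gene has several values, direction was not compared. Total calls (higher, lower), against 381 (41, 340), were 148 (10, 138) with a replicate block, 2 (1, 1) with no moderation of variances, 29 (1, 28) with the mean of a gene's probe sets, 75 (4, 71) over every probe set, 203 (14, 189) with a 1.2-fold minimum and 0 (0, 0) at an adjusted p under 0.01. The increases were 26 with quantile normalization and 25 with the gene span trend removed, a setting added after seeing the data. With 1 array left out, totals ranged from 0 to 503, increases from 0 to 147 and decreases from 0 to 397. The largest total was without SSC replicate 2, and the cause was not tested. The replicate block treated same-numbered arrays as belonging together. Same-numbered deviations correlated at 0.12, 0.07 and 0.17 for replicate 1 of SSC and iSSC, SSC and mSSC, and iSSC and mSSC. With 2 arrays a group, these values cannot show whether same-numbered arrays shared a preparation. Without moderation 2257 genes were at an unadjusted p under 0.05. Calls were 290 in all with quantile normalization and 261 with median centring. The all-gene median ranged from 0.006 to 0.173 over settings, so small list medians have no firm sign. With 2 arrays a group and calls near the threshold, a gene not called is not shown to be equal. Levels near background limit what a decrease can show.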
